A study of Mus musculus with 8 samples.

Results

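The proteasome subunits and their assembly factors were followed through transcript levels in the suprachiasmatic nucleus (SCN), the seat of the central circadian clock in the mammalian hypothalamus. Genes were taken by name, as every gene whose single annotated symbol starts with Psma, Psmb, Psmc, Psmd, Psme, Psmf or Psmg, and 50 of the 19938 genes on the array met this rule. Among the 50 genes, 45 passed a filter on low signal and were tested, and 5 did not. All mice were C57BL/6J and were either Gpr176-/- (KO), without the orphan G protein-coupled receptor Gpr176, or wild type (WT). They had lived in a light:dark cycle of 12 h each for over 2 weeks and were then kept in constant darkness. The 4 groups were KO at circadian time 18 (CT18, subjective night), KO at CT6 (subjective day), WT at CT18 and WT at CT6. There were 2 arrays per group, lettered A and B, every one with RNA pooled from the laser-microdissected SCN of 10 animals. A pool hides the spread between animals, and a whole-body knockout can act outside the SCN as well as in it.

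The proteasome is the protease that degrades ubiquitin-tagged proteins, among them the PER and CRY proteins of the clock. Its 20S core stacks outer rings of alpha subunits, which gate the channel, on inner rings of beta subunits, 3 of which cut peptide bonds. The 19S cap binds ubiquitin chains, removes them and unfolds the substrate with a ring of ATPases. Dedicated chaperones build core and cap, and other activators can dock on the core in place of the cap. Cells are known to raise transcription of the subunits together through NFE2L1 when proteasome activity falls short.

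Gpr176 itself had a log2 level of 8.42 and 8.56 in KO at CT18 and 8.08 and 8.02 in KO at CT6, against 9.73 and 9.87 in WT at CT18 and 9.37 and 9.31 in WT at CT6. Every KO array was lower than every WT array (KO minus WT over both times −1.30 ± 0.0491, SE, adjusted p = 3.38e-06, limma), and whether its probes lie inside the deleted part was not tested. The 12 SCN markers were all past the filter, with Avp at a mean log2 level of 11.3 and Vip at 11.6. Arrays of a group correlated at 0.995 to 0.996 over genes, and the deposited medians lay between 7.34 and 7.39. In bulk tissue, fewer cells of a type and less RNA per cell cannot be told apart. Below, levels are log2 values after quantile normalization, a difference of 0.15 is a fold of about 1.11, SE follows ±, and a gene is called where its Benjamini-Hochberg adjusted p over 12452 genes is under 0.05 in limma.

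The proteasome genes changed little between subjective night and day. Psmb5, which encodes the beta 5 subunit with the chymotrypsin-like activity of the core, was called higher at CT18, and it was the only one of the 45 called in any of the 7 comparisons of the fit described here. Over all genes tested, 16.8% were called in the comparison of CT18 with CT6 over both genotypes (10.0% higher and 6.79% lower), against 2.22% of the proteasome genes. An unadjusted p under 0.05 was reached there by 7 of the 45 (15.6%, against 30.5% of all genes). On the brightest probe sets, the CT18 and CT6 arrays did not overlap for 3 proteasome genes. Psmb3 and Psmb5 were higher (4.44%, against 12.6%) and Psma3 was lower (2.22%, against 8.30%). On the dimmer probe set of Psmb3 the times overlapped, with 11.95 on KO CT6 A and 11.91 on WT CT18 B. They also overlapped on the dimmest probe set of Psma3, with 10.09 on KO CT18 A and 10.06 on KO CT6 A. Markers of other cell types were called in the same comparison in limma, lower at CT18 for 3 of 10 endothelial and mural (median −0.10) and 2 of 9 oligodendrocyte markers (median −0.08), and higher for 2 of 10 astrocyte markers (median 0.03). Averaged over the 10 astrocyte markers, the deviation from each gene's mean was −0.08 and 0.01 in KO at CT18 and −0.01 and −0.05 in KO at CT6, against 0.12 and 0.02 in WT at CT18 and −0.06 and 0.03 in WT at CT6. Microglial, neuron and leptomeningeal markers had 0 calls between the times in limma (2, 3 and 2 at an unadjusted p under 0.05). The part of these markers in the proteasome values was not tested.

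Within KO, 0 of the 45 were called between CT18 and CT6 by limma, where 7.16% of all genes were. An unadjusted p under 0.05 was reached by 4 of them (8.89%, against 22.6%). The KO arrays separated for 18 of the 45 higher at CT18 (28.7% of all genes) and for 3 lower (23.8% of all genes). Within WT, 0 of the 45 were called by limma, where 6.94% of all genes were. An unadjusted p under 0.05 was reached by 3 of them (6.67%, against 21.8%). The WT arrays separated for 12 genes higher at CT18 (26.7%, against 30.5%) and for 10 lower (22.2%, against 21.6%).

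The difference KO minus WT over both times had 0 calls among the 45 in limma and 0.0241% over all genes. An unadjusted p under 0.05 was reached by 8 of the 45 (17.8%, against 12.0%). At CT18 the calls were 0 of 45 in limma, against 0.00803% of all genes, with 8 at an unadjusted p under 0.05 (17.8%, against 12.5%). At CT6 the calls were 0 of 45 in limma, against 0.00803% of all genes, with 1 at an unadjusted p under 0.05 (2.22%, against 4.24%). No proteasome gene was thus called by genotype.

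Psmb5 had a level of 11.48 and 11.55 in KO at CT18 and 11.42 and 11.39 in KO at CT6. It had 11.50 and 11.52 in WT at CT18 and 11.29 and 11.35 in WT at CT6. The 4 CT18 arrays were all above the 4 CT6 arrays, with the lowest level on WT CT6 A and the highest on KO CT18 B. The difference CT18 minus CT6 over both genotypes was 0.15 ± 0.0385 (95% interval 0.0636 to 0.236, adjusted p = 0.0256, limma), a fold of 1.11. It was 0.11 ± 0.0544 in KO (adjusted p = 0.270) and 0.19 ± 0.0544 in WT (adjusted p = 0.0715), both short of a call in limma. The difference between these, −0.08, had an adjusted p of 0.950 in limma. The call over both genotypes was lost in 8 of 15 alternative settings, with an adjusted p between 0.00832 and 0.0917. It was lost with the values as deposited (adjusted p = 0.0653) and after median centring (adjusted p = 0.0881), and without any one of WT CT6 A, WT CT18 A, WT CT18 B, KO CT6 A, KO CT6 B and KO CT18 B (adjusted p up to 0.0917).

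**Figure D1:**
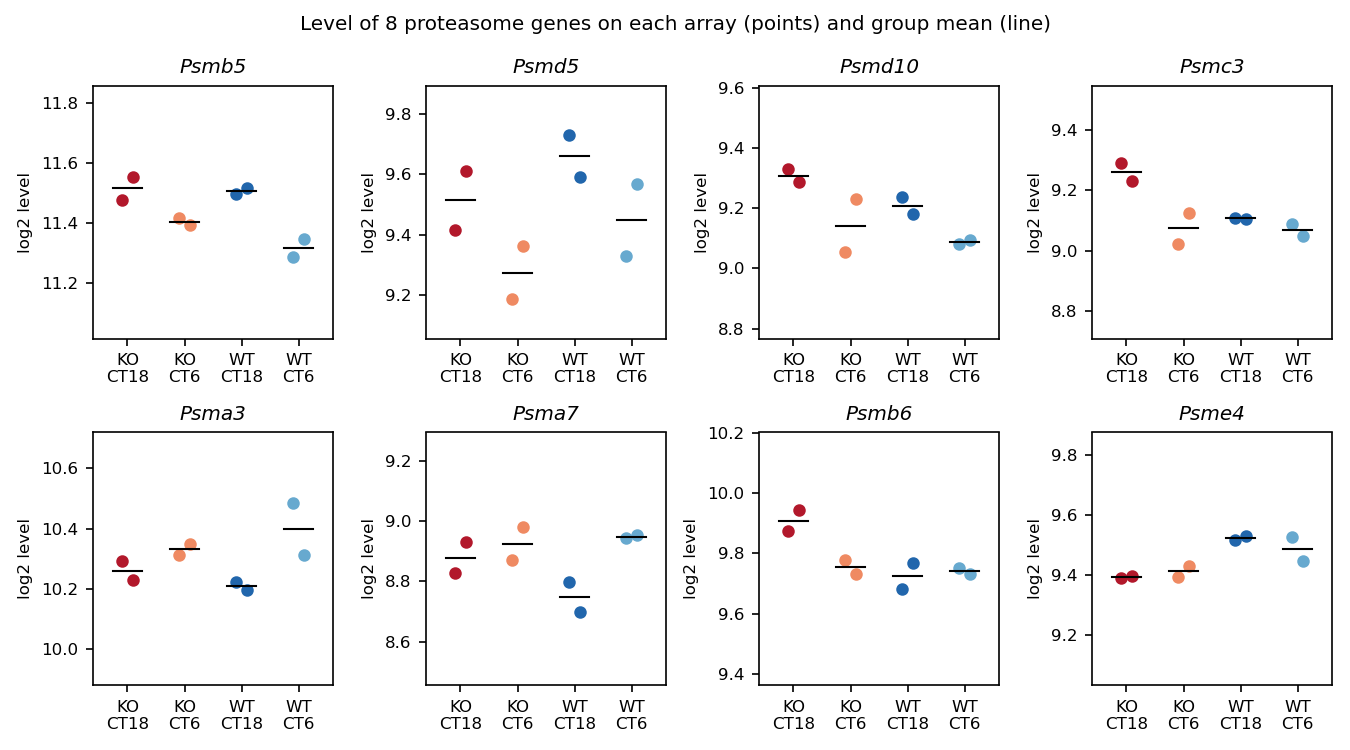
Log2 level of 8 proteasome genes on each of the 8 arrays (points) with the mean of each group (line). The y axis of each panel spans the same width around the mean of the gene. Psmb5 lies higher on all 4 CT18 arrays than on the 4 CT6 arrays, Psma3 lies lower on them, and Psme4 lies lower on the 4 KO arrays than on the 4 WT arrays.

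The promoter of Psmb5 is shown because it is the called gene, with matches to searched motifs in capitals. The stretch is the 250 bases before the gene's start at chr14:54617996-54618245 of RefSeq GRCm38.p6, on the minus strand, written 5′ to 3′ along the gene.
Psmb5: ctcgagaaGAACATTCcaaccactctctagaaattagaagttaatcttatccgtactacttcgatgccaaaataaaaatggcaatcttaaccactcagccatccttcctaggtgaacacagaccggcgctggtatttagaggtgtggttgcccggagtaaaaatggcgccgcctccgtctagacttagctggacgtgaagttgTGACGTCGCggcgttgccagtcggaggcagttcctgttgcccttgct
It held 2 matches. The first, GAACATTC at positions −242 to −235 from the start, fits the heat shock element core GAANNTTC, the motif of the heat shock factors. The second, TGACGTCGC, fits the antioxidant response element core TGACNNNGC, the motif family of NFE2L1 and NFE2L2. It had no match to the E-box CACGTG bound by CLOCK and BMAL1, the D-box TTATGTAA or the cyclic AMP response element TGACGTCA. These letters are a description of the sequence and not of binding.

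RefSeq promoters were found for 42 of the 50 genes, and both strands were searched. The heat shock element core was in 3 of them, those of Psmb5, Psmb9 and Psmf1 (7.14%, against 7.73% of all 27025 genes with a promoter). The antioxidant response element core was in 5, those of Psmb5, Psmb6, Psmc6, Psmd9 and Psmd12 (11.9%, against 11.5%). The E-box was in 5, those of Psma4, Psmb10, Psmd9, Psme3 and Psme3ip1 (11.9%, against 6.86%). The D-box and the cyclic AMP response element were in 0, against 0.977% and 1.77% of all genes. Psmb5 was the only proteasome gene called between the times in the fit described here. Whether a motif goes with a call thus cannot be read from these genes and was not tested.

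The alpha ring, whose 7 constitutive subunits were all tested, leaned to lower values at CT18. Over both genotypes 5 of the 7 differences CT18 minus CT6 were negative (median −0.04), against 16 of all 45 genes, and 0 were called. Within WT 6 of the 7 were negative, and the CT18 arrays of 5 of them lay wholly below the CT6 arrays, a separation that 21.6% of all genes showed in that direction. Averaged over the 7 genes, the deviation from each gene's mean was 0.03 and 0.00 in KO at CT18 and 0.03 and 0.05 in KO at CT6, against −0.07 and −0.07 in WT at CT18 and 0.04 and −0.01 in WT at CT6. The WT CT18 arrays were thus the lowest pair. Over the 45 genes, the sign within WT depended on the scaling, with 20 positive here and 32 with values as deposited.

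Psma3, the alpha 7 subunit, had 10.29 and 10.23 in KO at CT18 and 10.31 and 10.35 in KO at CT6, against 10.22 and 10.20 in WT at CT18 and 10.49 and 10.31 in WT at CT6. The 4 CT18 arrays lay below the 4 CT6 arrays, but the difference of −0.13 ± 0.0464 was not called (adjusted p = 0.0871, limma). Its other 2 probe sets gave −0.12 and −0.10, and on the dimmer of these the times overlapped. Psma7, the alpha 4 subunit, had 8.83 and 8.93 in KO at CT18 and 8.87 and 8.98 in KO at CT6, against 8.80 and 8.70 in WT at CT18 and 8.94 and 8.95 in WT at CT6. The times separated in WT and overlapped in KO, and its difference of −0.12 ± 0.0453 was not called (adjusted p = 0.0951, limma). Within WT the differences were −0.19 for Psma3 (adjusted p = 0.126) and −0.20 for Psma7 (adjusted p = 0.101), neither called by limma.

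At CT18 the difference KO minus WT was positive for 7 of the 7 alpha subunits (median 0.09), and 0 were called. It was also positive for 37 of all 45 genes, and for 24 of the 45 after median centring. Psma2, the alpha 2 subunit, had 9.40 and 9.28 in KO at CT18 and 9.43 and 9.37 in KO at CT6, against 9.24 and 9.24 in WT at CT18 and 9.28 and 9.25 in WT at CT6. The genotypes did not overlap at CT6 or at CT18, and over both times KO CT18 B reached down to the highest WT array, WT CT6 A. The difference over both times was 0.12 ± 0.0412 (adjusted p = 0.367, limma). Psma6, the alpha 1 subunit, had 10.58 and 10.59 in KO at CT18 and 10.60 and 10.60 in KO at CT6, against 10.46 and 10.47 in WT at CT18 and 10.54 and 10.53 in WT at CT6. The 4 KO arrays were above the 4 WT arrays, and the difference of 0.09 ± 0.0347 was not called (adjusted p = 0.374, limma). Psma5, the alpha 5 subunit, differed by 0.08 over both times, and its dimmer probe set by 0.25 ± 0.0474 (adjusted p = 0.538, limma on all probe sets). The 4 KO arrays were above the 4 WT arrays on both probe sets, so the 2 agree in direction and disagree in size. On the dimmer one the lowest KO array had 8.73 and the highest WT array 8.63. Probe set positions were not checked, so which of the 2 reads the Psma5 locus is not known.

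Among the 7 standard beta subunits, 3 differences CT18 minus CT6 over both genotypes were positive, and Psmb5 was the 1 called. The other catalytic subunits, Psmb6 and Psmb7, did not show the separation of all CT18 from all CT6 arrays seen for Psmb5. Within KO, Psmb6 rose by 0.16 and Psmb5 by 0.11, and whether the genes differ was not tested. Psmb6, the beta 1 subunit with caspase-like activity, had 9.87 and 9.94 in KO at CT18 and 9.78 and 9.73 in KO at CT6, against 9.68 and 9.77 in WT at CT18 and 9.75 and 9.73 in WT at CT6. The KO CT18 pair was above the other arrays, while the WT times overlapped. Its difference CT18 minus CT6 over both genotypes was 0.07 (adjusted p = 0.280, limma), and within KO it was 0.16 ± 0.0566 (adjusted p = 0.141, limma). Psmb7, the beta 2 subunit with trypsin-like activity, had 9.96 and 9.97 in KO at CT18 and 10.02 and 9.97 in KO at CT6, against 9.80 and 9.88 in WT at CT18 and 9.97 and 9.92 in WT at CT6. The WT CT18 pair was the lowest, and the difference over both genotypes was −0.07 (adjusted p = 0.265, limma). The test of whether a difference between times differed by genotype gave 0.17 ± 0.0801 for Psmb6 (adjusted p = 0.945, limma).

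The immune beta subunits replace the standard catalytic ones in immune cells and after interferon. Psmb8 (beta 5i) stayed under the filter, with 5.74 and 5.87 in KO at CT18 and 5.81 and 5.82 in KO at CT6, against 5.75 and 5.78 in WT at CT18 and 5.79 and 5.84 in WT at CT6. Psmb9 (beta 1i) had 7.80 and 7.69 in KO at CT18 and 7.82 and 7.68 in KO at CT6, against 7.55 and 7.65 in WT at CT18 and 7.67 and 7.75 in WT at CT6. Psmb10 (beta 2i) had 7.96 and 8.02 in KO at CT18 and 7.90 and 7.89 in KO at CT6, against 7.77 and 7.87 in WT at CT18 and 7.86 and 7.95 in WT at CT6. Both tested genes were lowest on a WT CT18 array, and neither was called in a comparison. For Psmb10 the difference KO minus WT at CT18 was 0.18 ± 0.0595 (adjusted p = 0.331, limma). Its test of a genotype by time difference, 0.19 ± 0.0841, had the smallest p of the 45 genes for that comparison in limma (adjusted p = 0.945). The thymic subunit Psmb11 and the testis alpha subunit Psma8 were under the filter too, with mean levels of 6.10 and 5.41.

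The 6 ATPases of the 19S base had positive differences CT18 minus CT6 over both genotypes in 6 of 6 (median 0.05), and 0 were called. Psmc3 (Rpt5) had 9.29 and 9.23 in KO at CT18 and 9.02 and 9.13 in KO at CT6, against 9.11 and 9.11 in WT at CT18 and 9.09 and 9.05 in WT at CT6. The KO CT18 arrays lay above the rest. The difference was 0.11 ± 0.0402 over both genotypes (adjusted p = 0.0851) and 0.19 ± 0.0569 within KO (adjusted p = 0.0808, the smallest within KO among the 45), in limma. KO minus WT at CT18 was 0.15 ± 0.0569 (adjusted p = 0.351, limma). The 2 probe sets of Psmc1 (Rpt2) gave different signs within WT, −0.03 and 0.13, so its direction there is uncertain.

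The 11 other 19S subunits, which form the lid and the rest of the base, include the ubiquitin receptor Psmd4 and the deubiquitinase Psmd14. Their differences CT18 minus CT6 over both genotypes were positive in 8 of 11 with a median of 0.02, the highest was 0.07, and 0 were called. KO minus WT over both times was positive in 5 of 11 with a median of −0.01. Psmd1 (Rpn2), a scaffold of the base, differed most between times within WT, by 0.12 ± 0.0563 (adjusted p = 0.260, limma), and by −0.02 within KO. Psmd4 was 0.13 ± 0.0537 higher in KO than in WT at CT18, short of a call (adjusted p = 0.389, limma).

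The 3 chaperones of the 19S base, Psmd5, Psmd9 and Psmd10, all had positive differences between CT18 and CT6 (median 0.14), and none was called over all genes. Psmd5 (S5b) had 9.41 and 9.61 in KO at CT18 and 9.18 and 9.36 in KO at CT6, against 9.73 and 9.59 in WT at CT18 and 9.33 and 9.57 in WT at CT6. CT18 was above CT6 within each genotype, while the times overlapped when the genotypes were joined. Its difference of 0.23 ± 0.0712 was the largest of the 45 and missed the threshold (adjusted p = 0.0576, limma). Psmd10 (gankyrin) had 9.33 and 9.29 in KO at CT18 and 9.05 and 9.23 in KO at CT6, against 9.24 and 9.18 in WT at CT18 and 9.08 and 9.09 in WT at CT6. The pattern was the same, with a difference of 0.14 ± 0.0466 (adjusted p = 0.0635, limma). Psmd5 was called in 6 of 15 alternatives and Psmd10 in 3 of 15. Among the chaperones of the 20S core, Psmg2 had a difference of 0.15 ± 0.0570 (adjusted p = 0.110), Psmg1 of 0.09 (adjusted p = 0.239), both not called by limma, and Psmg3 was under the filter.

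The 5 activators and inhibitor had a median difference CT18 minus CT6 of 0.01 and 0 calls. Psme4 (PA200) had 9.39 and 9.40 in KO at CT18 and 9.39 and 9.43 in KO at CT6, against 9.52 and 9.53 in WT at CT18 and 9.53 and 9.45 in WT at CT6. The 4 KO arrays were below the 4 WT arrays, opposite to most of the proteasome genes. The difference KO minus WT over both times was −0.10 ± 0.0375 and was not called (adjusted p = 0.373, limma). Psmf1 (PI31), an inhibitor of the core, had 9.88 and 9.92 in KO at CT18 and 9.87 and 9.92 in KO at CT6, against 9.85 and 9.84 in WT at CT18 and 9.83 and 9.86 in WT at CT6. Its times coincided, with a difference CT18 minus CT6 of 0.00062 (adjusted p = 0.994, limma). Psmc3ip, a meiotic recombination factor, and Psme3ip1, an interactor of Psme3, met the rule by their letters alone. Psmc3ip lay just under the filter of 6.82 with a mean of 6.71, and the lowest genes past it were Psmb9 with 7.70 and Psmg4 with 7.71.

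**Figure D2:**
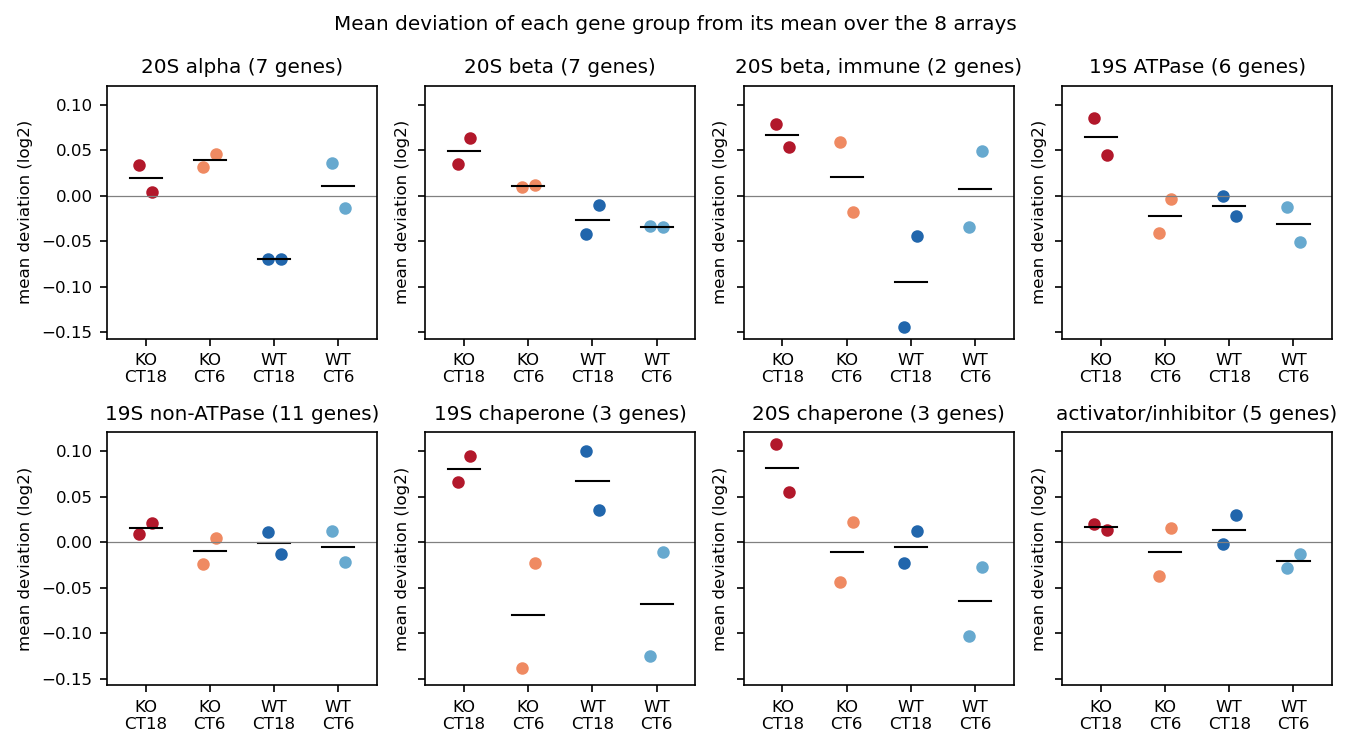
Mean deviation (log2) of the genes of 8 functional groups from each gene's own mean over the 8 arrays, for each array (points) and group of arrays (line). The 19S chaperones lie highest at CT18 in both genotypes, the alpha ring is lowest on the WT CT18 arrays, and the 19S non-ATPase subunits stay near 0.

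How small a change could be seen was read from the intervals. The median SE of the 45 genes was 0.0400 for a comparison over both genotypes or both times, 0.0566 for 2 groups and 0.0801 for the genotype by time difference. Over all genes it was 0.0449, 0.0636 and 0.0899, so the shares of intervals below reflect precision as well as the size of a difference. The 95% interval of CT18 minus CT6 over both genotypes lay within 0.25 log2 on either side of 0 for 43 of the 45 (95.6%, against 78.4% of all genes), with Psmd5 and Psmg2 outside. For KO minus WT over both times it did so for 44 (97.8%, against 92.0%), with Psmd5 outside. These counts rest on the brightest probe sets and leave out the dimmer one of Psma5, with 0.25 ± 0.0474 for KO minus WT. The genotype by time difference was less well bounded, with 24 of 45 intervals inside (53.3%, against 36.2%). The median absolute difference between times was 0.0442 for the proteasome genes and 0.0644 for all genes, and 976 of all genes lay beyond the largest proteasome difference. These intervals are limited by 2 arrays a group, and no time other than CT18 and CT6 was measured.

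**Figure D3:**
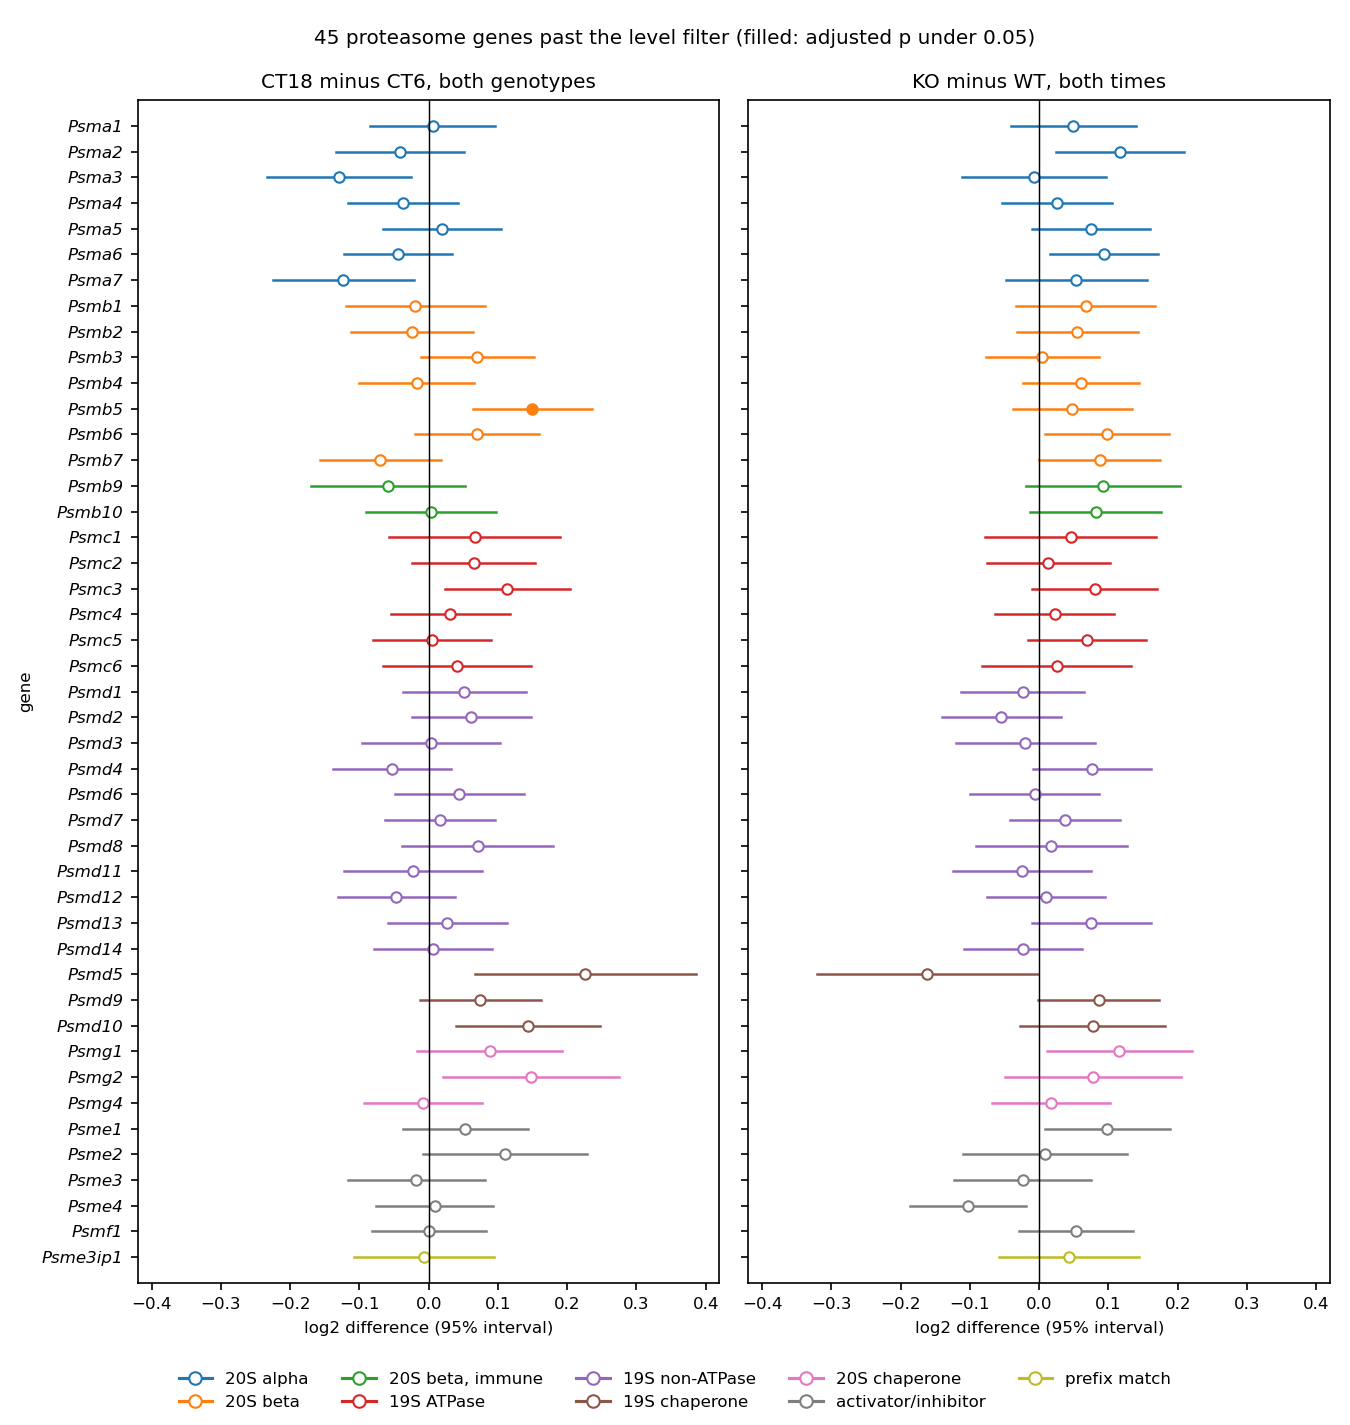
Log2 difference and 95% interval for each of the 45 tested genes, CT18 minus CT6 over both genotypes (left) and KO minus WT over both times (right), coloured by functional group. Psmb5 is the 1 filled point, called at an adjusted p under 0.05, and nearly all intervals of the left panel stay within 0.25 of 0.

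Between genotypes the 45 genes lay slightly to the higher side in KO without a call. KO minus WT over both times was positive in 35 of the 45 (77.8%, against 43.9% of all genes) with a median of 0.05, against −0.01 over all genes. With values as deposited it was positive in 32, and after centring on array medians in 26, with medians of 0.03 and 0.01 against −0.01 and −0.03 over all genes. The median of the 45 minus that of all genes was thus 0.06, 0.04 and 0.04 under the 3 scalings. Over both times the KO arrays lay wholly above the WT arrays for 5 of the 45 (11.1%, against 2.10% of all genes) and wholly below for 1, Psme4 (2.22%, against 2.13%). At CT6 they lay wholly above for 14 (31.1%, against 15.7%) and wholly below for 3 (6.67%, against 17.1%). At CT18 the KO arrays lay wholly above the WT arrays for 27 of the 45 (19.2% of all genes) and wholly below for 3 (26.7% of all genes). At CT18 the differences were positive in 37 of 45, in 30 as deposited and in 24 after median centring, and at CT6 in 33, 36 and 26. Differences at CT18 and CT6 had the same sign for 33 of the 45 (73.3%, against 58.7% of all genes). Of these, 29 were positive at both times and 4 negative at both. The count thus largely restates the positive lean at each time and is no separate support for it. The smallest adjusted p among the 45 was 0.367 over both times, 0.318 at CT18 (Psmb6) and 0.975 at CT6, in limma.

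Averaged over the 45 genes, the deviation from each gene's mean was 0.04 and 0.03 in KO at CT18 and −0.02 and 0.01 in KO at CT6, against −0.02 and −0.01 in WT at CT18 and −0.02 and −0.02 in WT at CT6. The KO CT18 arrays were thus the highest pair, and KO CT6 A was within the WT arrays. Markers of other cell types had 0 calls by genotype in limma (0 to 4 per list at an unadjusted p under 0.05, the most among microglial ones). Over both times the mean deviations of each list overlapped between KO and WT arrays. At CT18 alone they did not overlap for the microglial list (higher in KO) or for the endothelial and mural and the astrocyte lists (lower in KO). The difference KO minus WT over both times was negative for 9 of 9 oligodendrocyte markers (median −0.11), with mean deviations of −0.21 and −0.13 in KO at CT18 and 0.15 and −0.03 in KO at CT6, against 0.15 and −0.23 in WT at CT18 and 0.08 and 0.22 in WT at CT6. It was positive for 9 of 10 microglial markers (median 0.10), with mean deviations of 0.04 and 0.09 in KO at CT18 and 0.06 and −0.02 in KO at CT6, against −0.02 and −0.08 in WT at CT18 and −0.04 and −0.03 in WT at CT6. The microglial markers and the proteasome genes were both above 0 on both KO CT18 arrays. In KO at CT6 the microglial mean deviations were 0.06 and −0.02, against −0.02 and 0.01 for the proteasome genes. KO minus WT over both times was negative for 10 of 10 endothelial and mural markers (median −0.06), with −0.14 and −0.11 in KO at CT18 and 0.07 and 0.03 in KO at CT6, against 0.07 and −0.06 in WT at CT18 and 0.02 and 0.12 in WT at CT6. It was negative for 9 of 10 neuron and 9 of 10 astrocyte markers (medians −0.03 and −0.05) and for 5 of 8 leptomeningeal ones (median −0.01). Their part in the proteasome values was not tested.

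**Figure D4:**
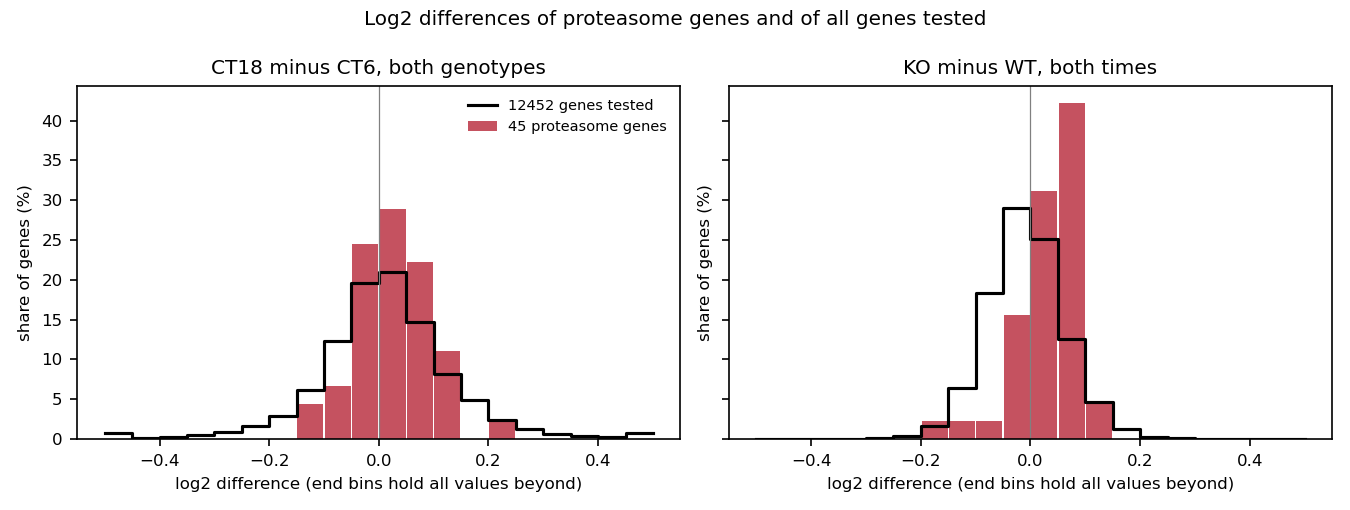
Share of genes (%) per bin of log2 difference for the 45 proteasome genes (bars) and the 12452 genes tested (line), CT18 minus CT6 over both genotypes (left) and KO minus WT over both times (right). The end bins hold all values beyond. No bar of the left panel lies beyond 0.25 on either side of 0, and in the right panel 35 of the 45 genes lie above 0.

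The differences between times were also set side by side in the genotypes. CT18 minus CT6 had the same sign in KO and in WT for 30 of the 45 genes (66.7%, against 68.2% of all genes). Within KO, 29 of 45 were positive (median 0.03), and within WT 20 of 45 (median −0.01). Within WT that direction depended on the scaling, since 32 of 45 were positive with values as deposited and after median centring (medians 0.03 and 0.03). The genotype by time difference had 0 calls among the 45 and 0% over all genes in limma, with 1 gene of the 45 (2.22%) and 4.87% of all at an unadjusted p under 0.05. Its sign leaned positive in 35 of 45, and in 22 of 45 under the other 2 scalings.

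Other lists of the pathway were set beside the proteasome genes for CT18 minus CT6 over both genotypes, where 16.8% of all genes were called. Other proteasome components and assembly factors, outside the name rule, had 0 of 10 called between the times in limma (median 0.01, 0 at an unadjusted p under 0.05). Their mean deviations were −0.02 and 0.01 in KO at CT18 and −0.05 and 0.01 in KO at CT6. In WT they were 0.03 and 0.00 at CT18 and 0.01 and 0.01 at CT6. Their KO CT18 pair was thus not the highest, unlike that of the genes under the name rule. Regulators of proteasome transcription had 2 of 5 called, both higher at CT18, beside the endothelial, oligodendrocyte and astrocyte markers called between the same arrays, whose part was not tested. Hsf2, a heat shock factor, had 8.72 and 8.96 in KO at CT18 and 8.56 and 8.65 in KO at CT6, against 9.02 and 8.92 in WT at CT18 and 8.52 and 8.70 in WT at CT6. CT18 arrays were all above CT6 arrays, by 0.29 ± 0.0635 (adjusted p = 0.0121, limma), and the call held in 15 of 15 alternatives. Nfe2l1, the regulator that raises subunit genes when proteasome activity is short, had 9.67 and 9.84 in KO at CT18 and 9.64 and 9.47 in KO at CT6, against 9.73 and 9.76 in WT at CT18 and 9.54 and 9.61 in WT at CT6. It rose by 0.18 ± 0.0541 (adjusted p = 0.0470, limma), a call lost in 8 of 15 alternatives (adjusted p up to 0.152).

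Of the genes that supply and shuttle ubiquitin, 2 of 8 were called, both higher at CT18. These were the shuttle factor Ubqln4 (0.18 ± 0.0452, adjusted p = 0.0234, lost in 6 of 15) and the ubiquitin-activating enzyme Uba6 (0.14 ± 0.0380, adjusted p = 0.0341, lost in 10 of 15), in limma. Of 6 antigen presentation genes, which act on the peptides that the proteasome makes, 1 was called lower at CT18, the peptide-loading factor Tapbp (−0.15 ± 0.0406, adjusted p = 0.0305, limma, lost in 10 of 15). None of these 5 genes was called between KO and WT in limma.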

How the data were processed

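Per the labels' protocols, RNA was column purified, amplified with a whole-transcript kit, biotin labelled and hybridised to whole-transcript arrays, 1 pool of 10 animals each. The authors deposited 1 table of log2 values (28853 probe sets, 8 arrays), and the background correction, summarisation and normalization behind them are not given in any source used here. The lower quartiles of the arrays spread by 0.139, over the limit of 0.1, so the columns were quantile normalized. The platform annotation gave 1 symbol to 21789 probe sets, several to 1621 and none to 5443, and 21698 matched RefSeq. The brightest probe set stood for each of 999 genes with more than 1. Positions of probe sets were not checked, so the brightest may not be the one at the gene's own locus. The proteasome genes had 56 probe sets, and a probe set naming Psme2 with a second gene was not used. Genes with a mean under the 40th percentile of probe sets (6.82) were left out, which left 12452 of 19938. One limma 3.58.1 fit under R 4.3.3 gave a mean per group (4 residual and 5.58 prior degrees of freedom) and 7 comparisons. Calls are at a Benjamini-Hochberg adjusted p under 0.05 over all genes tested. The number of arrays limits the precision.

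The members, lists and settings were chosen with earlier results of these data known. Genes given with every array are those called in a comparison, the 3 with the smallest p where none was called, the catalytic and immune beta subunits, Psme4, Psmf1 and Gpr176, together with called genes of the other lists, of which the 3 other than Hsf2 and Nfe2l1 are given by their differences. Other genes are named by their place in a group, after their values were seen. Promoters are RefSeq GRCm38.p6. Alternatives were the values as deposited, median centring, no filter or one at the 60th percentile, the mean of probe sets, an intensity trend, a replicate block, only the groups compared, and each array left out. The fit was tested on simulated data.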

Additional observations from a re-analysis of the deposited data

How the results depend on the processing

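No direction of a proteasome gene that had been called reversed, and 0 proteasome genes were called between KO and WT under any alternative run. For CT18 minus CT6 over both genotypes, the 1 called proteasome gene became 0 with values as deposited and after median centring, 3 with the stricter filter (Psmb5, Psmd5, Psmd10) and 4 with an intensity trend (these and Psma3). With arrays left out in turn it ranged over 0 to 4, with 0 without any one of WT CT6 A, WT CT18 A, WT CT18 B, KO CT6 A and KO CT18 B, 2 without KO CT6 B or KO CT18 A, and 4 without WT CT6 B. The letters A and B are not stated to pair arrays, and deviations of same-lettered arrays correlated at −0.222 to 0.257. With the letter as a replicate block 2 proteasome genes were called (Psmb5, Psmd5), and all genes called for KO minus WT at CT6 were 2. Within WT, 1 proteasome gene was called with the stricter filter and 1 with an intensity trend (Psmb5), and within KO 1 with the stricter filter (Psmc3). The stricter filter tests fewer genes, and other causes were not tested.

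The median difference of the proteasome genes CT18 minus CT6 over both genotypes was 0.0238 as deposited, 0.0229 median centred and 0.0170 with the stricter filter. It was 0.0305 and 0.0294 within WT, and 0.0173 and 0.0166 within KO, as deposited and median centred. KO minus WT over both times it was 0.0322 and 0.00931, and at CT18 0.0331 and 0.0104, in the same order. At CT6 it was 0.00795 median centred and 0.0200 with no filter. For the genotype by time difference it was −0.0020 as deposited and −0.0016 median centred, on the other side of 0 from 0.0285. With single arrays left out the medians spanned 0.00478 (without KO CT6 A) to 0.0246 (without KO CT18 B) over both genotypes, −0.0152 (without WT CT6 B) to 0.00634 (without WT CT18 A) within WT and 0.0199 (without KO CT6 A) to 0.0568 (without KO CT18 B) within KO. For KO minus WT they spanned 0.0310 (without KO CT18 A) to 0.0508 (without KO CT6 A) over both times, 0.0103 (without WT CT6 B) to 0.0330 (without KO CT6 A) at CT6 and 0.0470 (without KO CT18 A) to 0.0766 (without KO CT18 B) at CT18. For the genotype by time difference they spanned 0.0138 (without KO CT6 A) to 0.0525 (without KO CT18 B).

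All genes called within KO numbered 590 after median centring. All genes called KO minus WT over both times were 6 as deposited, 5 median centred, 1 with no filter, 6 with the stricter filter and 7 with an intensity trend. At CT6 they were 2 as deposited and 2 median centred, and at CT18 3 median centred and 3 with the stricter filter. With single arrays left out, all genes called spanned 1385 to 1803 between times over both genotypes, 311 (without WT CT18 A) to 827 within WT, 382 (without KO CT18 A) to 795 within KO and 1 to 4 by genotype over both times. Alternatives chosen after seeing the data, the dimmer probe sets of Psma3, Psma5, Psmb3, Psmc1 and Psmd2, changed no call. The 2 arrays a group limit the precision.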
